A study of Mus musculus with 6 samples.

Results

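Plaque-associated microglia genes were examined as a set of 10 genes, Trem2, Tyrobp, Clec7a, Cst7, Itgax, Gpnmb, Axl, Apoe, Lpl and Cd68, which published work on amyloid models ties to the microglia that gather around plaques. All probe sets with a single annotated symbol among these 10 were taken, which gave 14 of the 45101 probe sets and 10 of the 18194 genes named by a single symbol on the array. The RNA came from the hippocampus of male Tg2576 mice on a C57BL/6 background and was hybridised to 6 Affymetrix MG430 2.0 arrays, with 3 groups of 2 chips. All 3 groups carried the transgene, human APP695 with the Swedish mutation under the prion protein promoter. The groups were untreated mice of 12 months, labelled as low in plaque load (Tg-12mo), untreated mice of 18 months, labelled as high in plaque load (Tg-18mo), and mice of 18 months that had received the ACE inhibitor captopril in the drinking water at 20 mg per kg per day for the last 6 months (Tg-18mo-ACEI). Each chip carried a pool of RNA from 4 mice, so p-values measure the spread between chips and not between mice. Whether the 2 chips of a group held different pools is not given in the sources used here, and that spread may be technical only. A group without the transgene was not analysed here.

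Microglia are the resident macrophages of the brain. Around amyloid plaques they are known to lower some of their resting markers and to raise genes for lipid sensing, phagocytosis and lysosomes, a change that depends in part on the lipid receptor TREM2 and its signalling adaptor TYROBP. Several of the 10 genes are also expressed elsewhere in the hippocampus, Apoe above all in astrocytes and Lpl also in neurons, and signals of whole tissue cannot tell these sources apart. Likewise, more microglia and more RNA per microglial cell cannot be told apart in these samples.

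Values are linear signal intensities in arbitrary units, set by the authors' scaling to a trimmed mean of 600 per chip. A probe set entered the tests where its signal averaged 100 or above in any group, which left 23262, and their log2 signals were fitted with limma. A difference was called at an adjusted p under 0.05 (Benjamini-Hochberg over all of them). Of the 14 probe sets of the 10 genes, 10 reached this level and 4 did not. Itgax had no probe set that did, which left 9 genes with a test. The brightest probe set stands for each gene, and a second probe set existed for Trem2, Gpnmb, Axl and Lpl. Among control probe sets, the 3′ probe set of 18S ribosomal RNA had signals of 10219 to 11144 in Tg-18mo and of 1999.95 to 2214 in the other 2 groups, and β-actin had 3′/5′ ratios of 1.77 to 1.83 in Tg-12mo, 1.88 to 1.98 in untreated and 1.38 to 1.45 in treated mice of 18 months. The part of these differences in the results was not tested.

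The promoters of the 10 genes are shown first, since the genes are described together below. The RefSeq table of promoters (GRCm38.p6) holds 8 of the 10 genes, in windows of 250 bases before and 50 bases from the transcript start on. These 8 genes have 11 windows, as some have several starts. The pattern TGANTCA, an AP-1 motif with any base in the middle, reads alike on both strands. It is in 5 of the 11 windows, each of a different gene, and in 7.8% of all 32851 windows. The middle base is C or G, as in the usual AP-1 site, in Gpnmb, Itgax and Cd68, and A or T in Trem2 and Cst7. The PU.1 core GAGGAAG, searched on both strands, is present in Trem2 and Axl, and in 13.6% of all windows. The E-box CACGTG is in none of the 8 genes and in 7.2% of all windows, and TATAAA on either strand is in 2 of them, Apoe and Clec7a, and in 13.6% of all windows. A match describes the sequence only. The 5 genes with a match to TGANTCA are given below from 150 bases before the start to 20 bases from the start on. They read 5′ to 3′ on the strand of the gene, with these matches and, in Trem2, the PU.1 core in capitals.
Trem2, chr17:48346251-48346420, plus strand: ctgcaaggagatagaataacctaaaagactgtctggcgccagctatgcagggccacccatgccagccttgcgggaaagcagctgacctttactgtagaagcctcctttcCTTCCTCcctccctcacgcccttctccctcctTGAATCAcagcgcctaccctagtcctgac
Cst7, chr2:150570265-150570434, plus strand: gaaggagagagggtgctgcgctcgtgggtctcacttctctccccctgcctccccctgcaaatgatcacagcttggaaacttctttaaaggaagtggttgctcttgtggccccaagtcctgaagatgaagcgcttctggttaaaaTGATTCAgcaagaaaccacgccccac
Gpnmb, chr6:49036368-49036537, plus strand: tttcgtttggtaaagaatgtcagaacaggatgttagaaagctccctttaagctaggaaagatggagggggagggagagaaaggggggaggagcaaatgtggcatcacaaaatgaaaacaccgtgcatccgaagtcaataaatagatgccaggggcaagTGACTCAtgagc
Itgax, chr7:128129400-128129569, plus strand: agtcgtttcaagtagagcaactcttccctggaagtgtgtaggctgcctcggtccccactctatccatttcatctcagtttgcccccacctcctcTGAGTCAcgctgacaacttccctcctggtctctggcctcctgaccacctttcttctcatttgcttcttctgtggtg
Cd68, chr11:69666151-69666320, minus strand: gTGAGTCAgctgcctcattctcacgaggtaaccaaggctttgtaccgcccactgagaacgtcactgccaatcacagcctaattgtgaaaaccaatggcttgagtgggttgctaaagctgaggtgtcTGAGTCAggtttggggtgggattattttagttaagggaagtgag

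The first question was how these genes differed between 12 and 18 months in untreated mice, the interval in which plaques accumulate in this line. Of the 9 genes tested, 7 were higher in Tg-18mo than in Tg-12mo, namely Clec7a, Cst7, Trem2, Gpnmb, Axl, Cd68 and Tyrobp, and 2 were lower, Apoe and Lpl. Over all probe sets tested, 25.9% were called higher and 21.5% lower in the same comparison, and over the brightest probe sets of all 12322 genes 28% and 21.1%, so that a call alone is common here. The median log2 difference of the 9 genes was 0.56, against 0.06 over all genes. At the thresholds of the study's methods, a change of 2-fold or more with a raw p, here limma's, no higher than 0.01 and an average of 100 or above in either group, 4 of the 9 genes were higher and 0 lower, against 2.57% and 1.78% of all probe sets. These 4 were Clec7a, Cst7, Trem2 and Gpnmb. Clec7a and Cst7 reached a mean of 100 in the 18 month groups only, so the filter could admit them only if they differed, and the counts and medians that include them are a description. Of the other 7 genes, 5 were higher and 2 lower.

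**Figure D1:**
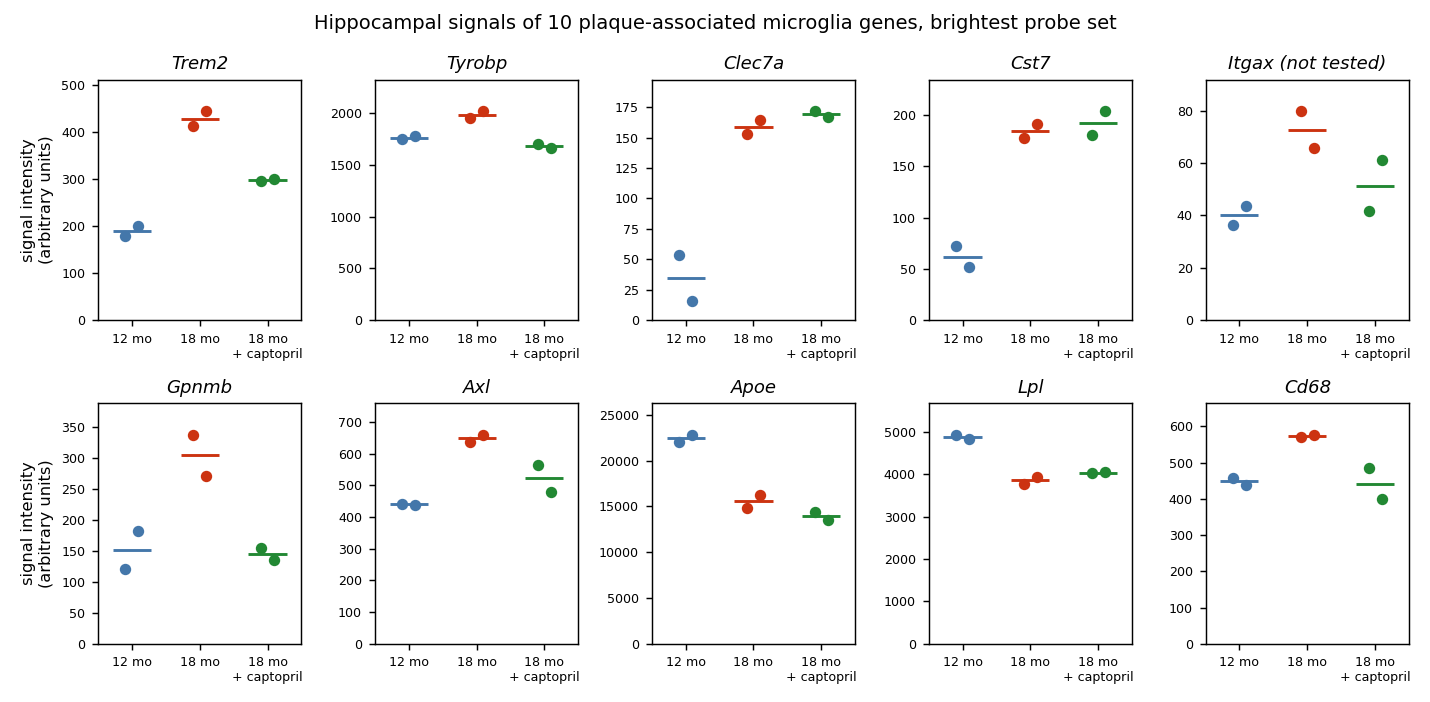
Signal intensity (arbitrary units, linear axes from 0) of the brightest probe set of each of the 10 genes on the 6 chips; points are chips and bars are means of the 2 chips of a group. Trem2, Gpnmb, Axl, Cd68 and Tyrobp were highest in Tg-18mo, Clec7a and Cst7 were low in Tg-12mo only, and Apoe and Lpl were highest in Tg-12mo.

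Trem2, the receptor, was at 178 and 199 in Tg-12mo and at 413 and 445 in Tg-18mo. The chips of the 2 groups did not overlap, and the log2 difference was 1.19 ± 0.12 (SE, n = 2 chips each, adjusted p = 0.000118), a 2.27-fold rise. Tyrobp, the adaptor through which TREM2 signals, rose far less, from 1751 and 1778 to 1954 and 2022. Its log2 difference was 0.17 (95% interval 0.05 to 0.29, adjusted p = 0.025), and that call was lost under quantile normalization, with each chip divided by its median, without an intensity trend in the prior variance, and without any of the 4 chips compared. The intervals of the 2 partners did not overlap, as that of Trem2 ran from 0.91 to 1.46, but the difference between the 2 genes was not tested.

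Clec7a, a receptor for fungal glucans that signals through the kinase SYK, was at 53.5 and 15.9 in Tg-12mo and at 153 and 164 in Tg-18mo. The log2 difference was 2.44 (95% interval 1.33 to 3.55, adjusted p = 0.0037). Both Tg-12mo chips were under 100 and far apart, and with 32 added to each signal the difference was 1.57. It was 1.57 also without Tg-12mo replicate 2, and 3.31 without Tg-12mo replicate 1. Cst7, cystatin F, an inhibitor of lysosomal cathepsins, was at 72.1 and 51.7 in Tg-12mo and at 177 and 191 in Tg-18mo. It rose by 1.59 on the log2 scale (SE 0.22, adjusted p = 0.000617), or by 1.21 with 32 added to each signal. Both genes lay under 100 on the Tg-12mo chips and above 100 on all 4 chips of 18 months.

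Gpnmb, a transmembrane glycoprotein of lysosomes in macrophages, went from 120.2 and 183 to 338 and 271. This was a log2 difference of 1.03 (95% interval 0.51 to 1.55, adjusted p = 0.0061), although the 2 chips of each group differed more than for Trem2, and leaving out Tg-18mo replicate 1 ended the call (adjusted p = 0.053). Axl, a receptor tyrosine kinase that recognises dying cells through the bridging ligand GAS6, went from 441 and 438 to 636 and 659.5, a rise of 0.56 ± 0.10 (SE, adjusted p = 0.0021). Cd68, a heavily glycosylated protein of the lysosomal membrane, went from 459 and 437 to 571 and 577, and its log2 difference of 0.36 had an adjusted p of 0.027. The Cd68 call was lost under quantile normalization (adjusted p = 0.10), without the intensity trend (adjusted p = 0.0504) and without each of Tg-18mo replicate 1, Tg-18mo replicate 2 and Tg-12mo replicate 2 (adjusted p = 0.089 to 0.11). Itgax, the CD11c integrin chain, was listed at 36.2 and 43.8 in Tg-12mo and at 79.9 and 65.6 in Tg-18mo. Its chips did not overlap between the groups, but all signals were under 100, and without the filter on low signals its log2 difference of 0.86 did not pass (95% interval -0.08 to 1.81, adjusted p = 0.20).

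The 2 genes of lipid transport and hydrolysis went the other way. Apoe, the main apolipoprotein of the brain, had signals of 22069 and 22814 in Tg-12mo and of 14799.7 and 16273 in Tg-18mo, a log2 difference of -0.53 (adjusted p = 0.000163). Lpl, lipoprotein lipase, was at 4936.5 and 4844 in Tg-12mo and at 3782 and 3934 in Tg-18mo, a log2 difference of -0.34 (adjusted p = 0.000454). Very bright probe sets were lower as a class in Tg-18mo. Among the 633 tested probe sets that averaged 10000 or above, as Apoe did, 96.8% had a log2 difference below 0, with a median of -0.49. The highest signal on a chip was 39494 and 40189.9 in Tg-12mo and 24057 and 25102 in Tg-18mo. Under quantile normalization the Apoe difference changed sign, to 0.08 (adjusted p = 0.085), so its direction depends on the scaling. Among the 3176 that averaged 3000 or above, a range that includes Lpl, 69.1% were below 0, with a median of -0.17. Under quantile normalization Lpl was still lower, by -0.28 (adjusted p = 0.0013).

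**Figure D2:**
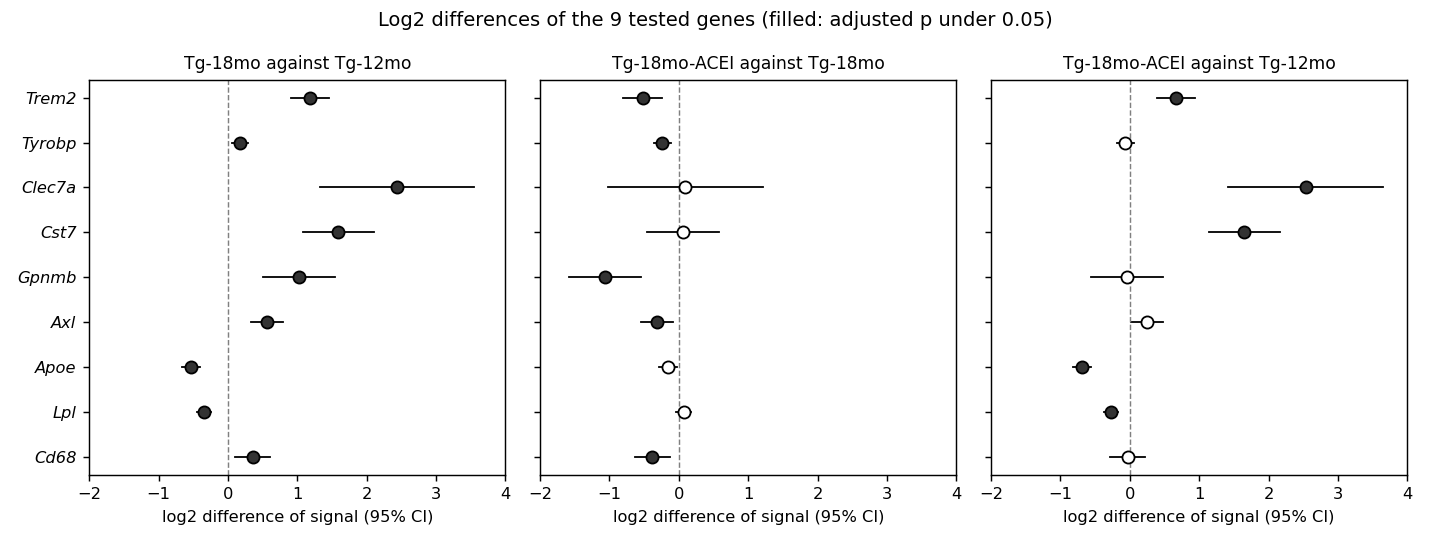
Log2 differences of signal (horizontal axes) with 95% intervals from limma for the 9 tested genes in the 3 comparisons; filled points passed an adjusted p of 0.05. Between 12 and 18 months 7 genes were higher and 2 lower, with captopril 5 were lower, and against Tg-12mo the captopril group had higher Trem2, Clec7a and Cst7.

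The second question was whether captopril, given from 12 to 18 months, changed the level of these genes at 18 months. Of the 9 genes tested, 5 were lower in Tg-18mo-ACEI than in Tg-18mo, Gpnmb, Trem2, Cd68, Axl and Tyrobp, and 0 were higher. Over all probe sets 17.7% were called lower and 15.9% higher, and over all 12322 genes 21.7% and 12.6%. The median log2 difference of the 9 genes was -0.24, against -0.08 over all 12322 genes. At the study's thresholds only Gpnmb was lower and 0 genes were higher, against 1.06% and 3.03% of all probe sets. Not all of the 9 genes were lower, as Clec7a and Cst7, which had the largest differences between the ages, were within 0.10 log2 of the untreated mice.

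Gpnmb had signals of 155 and 135 on the Tg-18mo-ACEI chips, against 338 and 271 on the Tg-18mo chips. This was the largest change with captopril among the 10 genes, a fall of 2.09-fold (log2 difference -1.07, 95% interval -1.58 to -0.55, adjusted p = 0.0081). Trem2 was at 297 and 302 against 413 and 445, so that both treated chips lay between the 12 month and the untreated 18 month chips. Its log2 difference was -0.52 ± 0.12 (SE, n = 2 chips each, adjusted p = 0.012). Tyrobp was at 1708 and 1668 against 1954 and 2022, a log2 difference of -0.24 (95% interval -0.36 to -0.12, adjusted p = 0.0095). For Tyrobp, in contrast to Trem2, both treated chips also lay below the Tg-12mo chips.

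Axl was at 565 and 479 in Tg-18mo-ACEI against 636 and 659.5 in Tg-18mo, a log2 difference of -0.32 (adjusted p = 0.041). The Axl call was lost with no filter, with each chip divided by its median and without the intensity trend (adjusted p = 0.064, 0.072 and 0.0695). Cd68 was at 485 and 399 against 571 and 577, a log2 difference of -0.39 (adjusted p = 0.028). For both genes Tg-18mo-ACEI replicate 1 lay nearer to the untreated chips than replicate 2 did. Fits without 1 chip leave 1 chip in a group, and the share of all probe sets called in them was not computed. Without Tg-18mo-ACEI replicate 2, none of the 9 genes was called, with adjusted p-values of 0.059 for Gpnmb, 0.063 for Trem2, 0.060 for Tyrobp, 0.24 for Axl and 0.17 for Cd68, all 5 still with negative differences, of -0.97, -0.53, -0.22, -0.20 and -0.24. Without Tg-18mo replicate 2 only Gpnmb was called, and without Tg-18mo replicate 1 Trem2 and Tyrobp were called along with Apoe. Without Tg-18mo-ACEI replicate 1, 4 genes were called, all of the 5 but Trem2 (adjusted p = 0.064). Itgax was listed at 41.6 and 61.1 with captopril, with no call when fitted without the filter (log2 difference -0.52, adjusted p = 0.52).

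Clec7a was at 172 and 167 with captopril against 153 and 164 without, and Cst7 at 181 and 204 against 177 and 191. Their log2 differences were 0.09 (95% interval -1.02 to 1.21, adjusted p = 0.90) and 0.06 (95% interval -0.45 to 0.58, adjusted p = 0.85). The Clec7a interval includes a fall of the size estimated for Trem2, and the Cst7 interval does not, but the difference in response between these genes was not tested. Apoe had signals of 14346 and 13499.9 with captopril, below both untreated chips, and did not pass (log2 difference -0.16, adjusted p = 0.069). Lpl was at 4025 and 4059 with captopril, above both untreated chips, and did not pass (log2 difference 0.07, adjusted p = 0.28).

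The third comparison set the captopril group against Tg-12mo, the age at which treatment began. It shares its chips with the other 2 comparisons and is no independent evidence for them. Of the 9 genes, 3 were higher in Tg-18mo-ACEI, Clec7a by 2.53, Cst7 by 1.65 and Trem2 by 0.67 on the log2 scale (adjusted p = 0.0038, 0.000655 and 0.0030). Clec7a and Cst7 passed the filter only through the 18 month groups, so here too the counts and medians that include them are a description. The Clec7a difference was 1.65 with 32 added to each signal, 1.66 without Tg-12mo replicate 2 and 3.41 without Tg-12mo replicate 1. Apoe and Lpl were lower, with log2 differences of -0.69 and -0.27 (adjusted p = 6.1e-05 and 0.0018), and Apoe again lost the call under quantile normalization (-0.02, adjusted p = 0.71). Over all probe sets 22.3% were called higher and 17.7% lower, over all genes 20.1% and 20.6%, and at the study's thresholds 2.05% and 1.24%, among them Clec7a and Cst7 as higher. The median log2 difference of the 9 genes was -0.03, against 0.01 over all genes. Gpnmb, Cd68 and Tyrobp had log2 differences of -0.04, -0.03 and -0.06, with 95% intervals of -0.56 to 0.48, -0.28 to 0.22 and -0.18 to 0.06. Axl had a log2 difference of 0.24 (adjusted p = 0.083). In the treated mice, both Trem2 chips lay between those of the 2 untreated groups, and the Gpnmb and Cd68 chips overlapped with those of mice 6 months younger.

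Genes with 2 probe sets were compared within the gene. Both probe sets of Lpl were tested and ran in the same direction between the ages, at -0.34 and -0.48 (adjusted p = 0.000454 and 0.015). The second probe sets of Trem2, Gpnmb and Axl had signals of 14.5 to 52.9, 19.4 to 38.2 and 0.580 to 24.6, all under 100, and were not tested. On these dim probe sets the order of the untreated groups was the opposite of that on the bright ones. Trem2 was listed at 47.9 and 52.9 in Tg-12mo and at 14.5 and 24.8 in Tg-18mo, and Axl at 24.6 and 23.7 against 9.94 and 0.580. Averaging log2 signals over both probe sets of a gene therefore changed the sign for Trem2 and Axl between the ages (-0.11 and -1.38, adjusted p = 0.78 and 0.15). It also ended the calls of Gpnmb between the ages (0.34, adjusted p = 0.36) and with captopril (-0.63, adjusted p = 0.12), and that of Trem2 with captopril (-0.11, adjusted p = 0.80). No detection calls were used here, and whether the dim probe sets measured the transcripts was not tested.

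**Figure D3:**
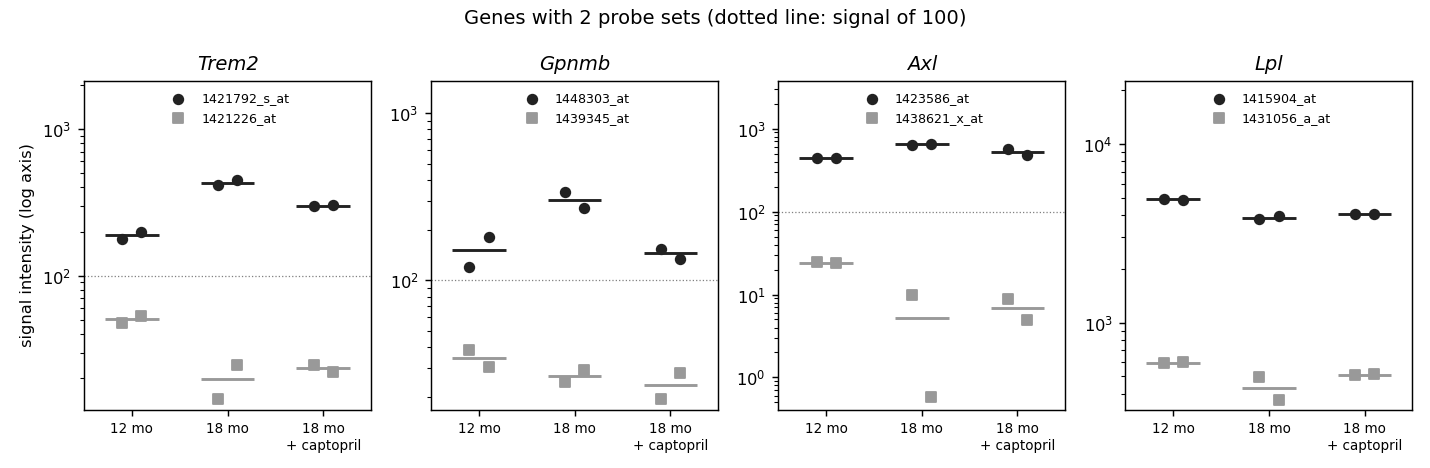
Signal intensity (log axes) of both probe sets of Trem2, Gpnmb, Axl and Lpl on the 6 chips, with bars at group means and a dotted line at 100. The second probe sets of Trem2, Gpnmb and Axl lie under 100 on every chip, while both probe sets of Lpl are above it and highest in Tg-12mo.

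Other genes of the same state and of the TREM2 pathway were taken from lists. Their counts are to be read against the shares of all 12322 genes, 28% higher and 21.1% lower between the ages and 12.6% and 21.7% with captopril. A list for signalling of TREM2, TYROBP and CLEC7A held 16 genes. Not all of them act downstream, as Hcst and Fcer1g encode adaptors and Spi1 a transcription factor. Of the 16, 11 were tested, and 5 were higher and 0 lower in Tg-18mo than in Tg-12mo. The median log2 difference was 0.51, and Fcer1g and Spi1 were among the 5. Plcg2, a phospholipase activated by SYK, and Spi1, which encodes PU.1, rose by 0.78 and 1.02 (adjusted p = 0.0015 and 0.029), and Fcer1g, another adaptor with the same kind of tyrosine motif, by 0.81. Pik3cd, a phosphoinositide 3-kinase of leukocytes, rose from 337 to 1097 (log2 difference 1.70). Spi1 averaged 77.8 in Tg-12mo and passed the filter only through the 18 month groups. With captopril 1 of the 11 was called, Pik3cd, which fell by 1.29. Fcer1g, Plcg2 and Spi1 had log2 differences of -0.18, -0.08 and -0.04 with captopril and did not pass, and against Tg-12mo all 3 remained higher, by 0.62, 0.70 and 0.98 (adjusted p = 0.0034, 0.0032 and 0.039). Syk was at 79.7 in Tg-12mo and 126 in Tg-18mo and did not pass (adjusted p = 0.070).

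Of 20 ligands, co-receptors, cofactors and substrates of the 10 genes, 17 were tested, with 6 higher and 3 lower at 18 months (median log2 difference 0.06) and 1 higher and 9 lower with captopril (median -0.31). The shares between the ages were near those of all genes. Gas6, the ligand of AXL, rose by 0.73 with age and fell by 0.31 with captopril (adjusted p = 0.0027), as Axl itself did in both comparisons. Its other receptors differed from each other. Tyro3 moved as Axl did, up by 0.48 with age and down by 0.32 with captopril. Mertk did not pass between the ages (-0.03) and fell by 0.57 with captopril. Lrp1, an APOE receptor, rose by 0.68 and fell by 0.55, and Vldlr, a second one, was lower at 18 months by -0.77 and lower again with captopril (-0.20, adjusted p = 0.042). Ctsh and Ctsl, lysosomal cathepsins, fell with captopril by 0.78 and 0.33, and Ctsc, a cathepsin whose activity cystatin F restrains, did not pass (-0.05). Many of these partners are made by cells other than microglia.

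Of 29 further genes of plaque-associated microglia, 23 were tested. Between the ages 8 were higher and 6 lower (median 0.10), and with captopril 0 were higher and 8 lower (median -0.11), against medians of 0.06 and -0.08 over all genes. The shares between the ages were again near those of all genes. Ccl4, among the 8 higher, averaged 81.1 in Tg-12mo and passed the filter only through the 18 month groups. Lyz2, lysozyme of phagocytes, averaged 839 in Tg-18mo, 531 in Tg-12mo and 509 with captopril (log2 differences 0.66 and -0.72). The lysosomal genes Ctsd, Ctsz and Gusb, picked for description after their values were seen, rose by 0.47, 0.42 and 0.46 with age and fell by 0.47, 0.39 and 0.46 with captopril. Ctsb, another lysosomal cathepsin of the list, went the other way between the ages (-0.24, adjusted p = 0.0060). With captopril Ctsb did not pass (-0.11, adjusted p = 0.16). Lgals3, a galectin, was highest in Tg-12mo, at 398 against 269, and fell further with captopril, to 158. Fth1, ferritin heavy chain and one of the brightest genes on the chip, was lower in Tg-18mo (-0.79). Of the 6 genes that were lower at 18 months, 3, Fth1, Fabp5 and Ctsb, had mean signals above 10000.

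**Figure D4:**
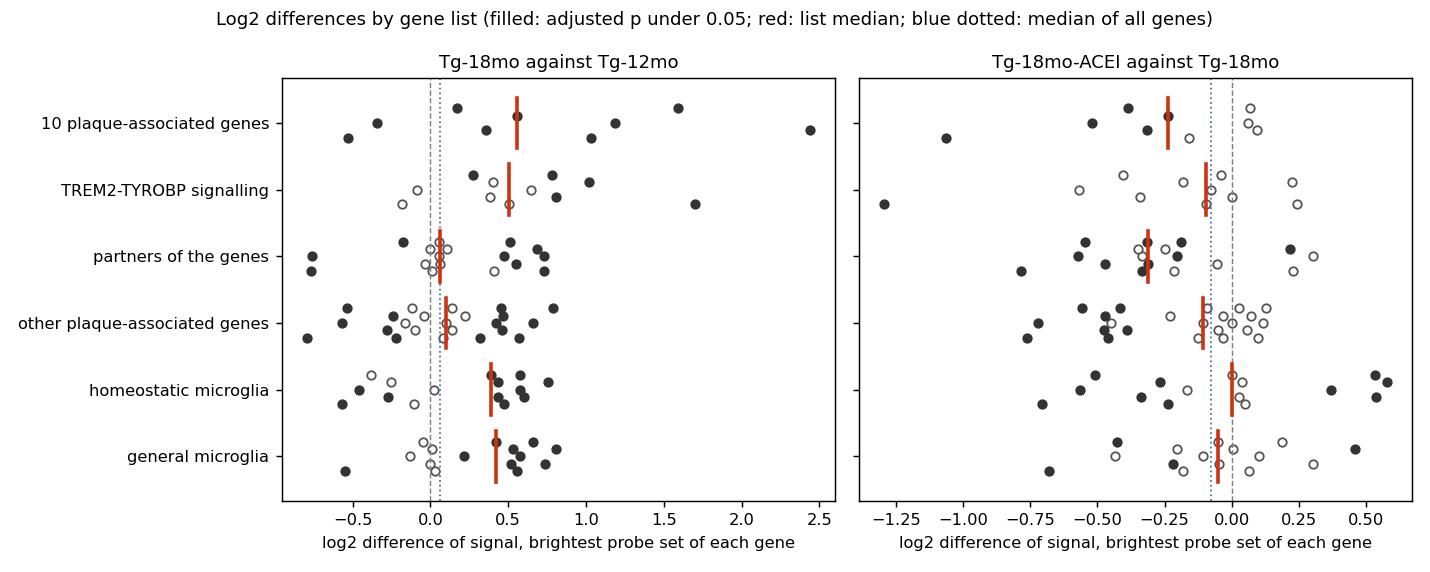
Log2 differences (horizontal axes) of the tested genes of 6 lists, each by its brightest probe set, between the ages (left) and with captopril (right); filled points passed an adjusted p of 0.05, red bars are list medians and the dotted line is the median of all genes. Clec7a lies furthest to the right between the ages, at 2.44, and general and homeostatic microglia genes have medians of 0.42 and 0.39.

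Markers of microglia in general were mostly higher at 18 months in untreated mice, and few of them were called with captopril. Of 15 such genes, all tested, 9 were higher and 1 lower in Tg-18mo than in Tg-12mo (median 0.42), and 1 was higher and 3 lower with captopril (median -0.05), the latter a share near that of all genes. C1qc, a complement subunit, rose by 0.66 and Cyba, a subunit of the phagocyte oxidase, by 0.74 with age. The mean log2 signal of the 15 genes was 0.29 higher in Tg-18mo than in Tg-12mo and 0.08 lower in Tg-18mo-ACEI than in Tg-18mo. When each chip was centred on this mean, a setting chosen after the data were seen, Clec7a, Cst7, Trem2, Gpnmb and Axl were still higher at 18 months, by 2.15, 1.30, 0.90, 0.74 and 0.27 (adjusted p = 0.0034, 0.0011, 0.00029, 0.016 and 0.047). Cd68 and Tyrobp were not, at 0.07 and -0.12 (adjusted p = 0.62 and 0.14). The centred values of Clec7a and Cst7 are a description, as both passed the filter only through the 18 month groups. On that scale Gpnmb and Trem2 were still lower with captopril, by -0.98 and -0.44 (adjusted p = 0.0074 and 0.030), and Cd68, Tyrobp and Axl did not pass (adjusted p = 0.061, 0.085 and 0.11). Relative to the 15 genes, Tyrobp was lower in Tg-18mo-ACEI than in Tg-12mo (-0.27, adjusted p = 0.0056). Fcer1g of this list is also on the TREM2 pathway list, and Itgam on that of partners.

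**Figure D5:**
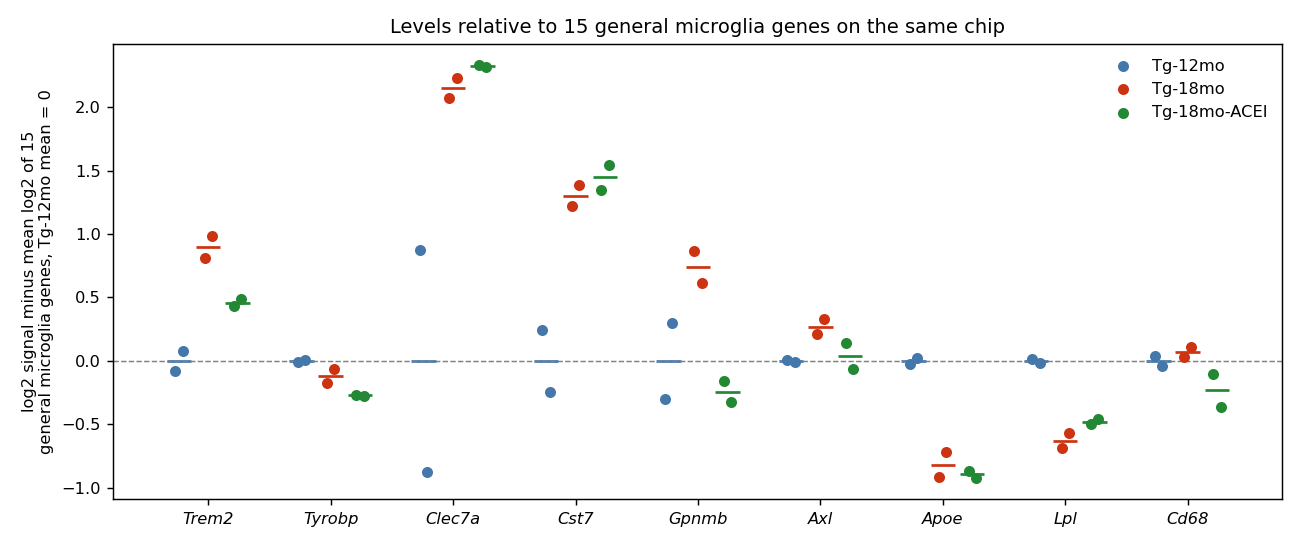
Log2 signal of the 9 tested genes minus the mean log2 signal of 15 general microglia genes on the same chip, with the mean of Tg-12mo set to 0; points are chips and bars are group means. Clec7a, Cst7 and Trem2 stay above 0 on all 18 month chips, and Gpnmb lies above all Tg-12mo chips in Tg-18mo but not with captopril.

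Homeostatic microglia genes, which mark microglia away from plaques, were mixed. Of 17, 15 were tested, with 8 higher and 3 lower at 18 months (median 0.39) and 4 higher and 6 lower with captopril (median 0.00). The share lower at 18 months was near that of all genes. Fcrls, P2ry13 and Bin1 rose by 0.76, 0.60 and 0.58 with age. The 3 that were lower at 18 months, named after their values were seen, were the receptors Gpr34, Cx3cr1 and P2ry12, at -0.57, -0.46 and -0.27 (adjusted p = 0.017, 0.00029 and 0.011). All 3 were higher with captopril, by 0.58, 0.54 and 0.53 (adjusted p = 0.021, 0.00025 and 0.00067), the opposite order to that of Trem2 and Gpnmb. Cx3cr1 averaged 1077 in Tg-18mo, 1482 in Tg-12mo and 1566 with captopril, and P2ry12 762, 920.5 and 1103. Other genes of the same list went in the order of Trem2. Fcrls, Tmem119, Selplg, Slc2a5 and Crybb1 were called higher at 18 months, the last 4 by 0.47, 0.43, 0.44 and 0.39. All of these were called lower with captopril, at -0.34, -0.27, -0.24, -0.51 and -0.71. Sparc fell with captopril by 0.57 and did not pass between the ages (0.02). Bin1 and Sparc are also expressed by cells other than microglia.

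Markers of other cells were set beside these results. Of 8 markers of border and perivascular macrophages, 4 were tested, 0 were higher and 1, Pf4, was lower at 18 months, and with captopril 0 of the 4 were called. The summed signal of the 8 was 1047 to 1213 in Tg-12mo, 881 to 903 in Tg-18mo and 819 to 851 with captopril, highest where Trem2 was lowest. Of 9 markers of monocytes, neutrophils and blood on the array, 3 neutrophil genes were tested, S100a8, S100a9 and Ngp, with means of 21.4 to 42.5 in Tg-12mo and of 144 to 168 in Tg-18mo. They passed the filter only through the 18 month groups, so their count has no weight, and among the 6 not tested Ccr2 was listed at 97.1 in Tg-12mo and 29.5 in Tg-18mo. The summed signal of the 9 was 288 to 478 in Tg-12mo, 747 to 797 in Tg-18mo and 513 to 586 with captopril, the same order as for Trem2, and its part in the results was not tested. Of 12 astrocyte genes 2 were higher and 7 lower at 18 months, with Gfap at 2638 against 5549.7, and 3 were higher and 3 lower with captopril, where the share lower was near that of all genes. Of 9 markers of the choroid plexus, 8 were lower with captopril (median -2.51), and the exception was Ttr, the brightest (0.05). Between the ages 3 of the 9 were higher and 1 was lower, Ttr, which averaged 36377 in Tg-12mo and 18677 in Tg-18mo. The summed signal of the 9 markers, most of it Ttr, was 44261 to 44494 in Tg-12mo, 26506 to 28807 in Tg-18mo and 20179.8 to 22143 with captopril. Their part in the results was not tested. All 11 markers of hippocampal neurons passed the filter, with 2 higher and 4 lower at 18 months and 3 higher and 1 lower with captopril. Prox1, a marker of granule cells, was 1.57 higher with captopril. C1ql2 was 1.11 higher at 18 months and did not pass with captopril (0.14, adjusted p = 0.093). Calb1 was lower at 18 months (-0.20) and did not pass with captopril (-0.03, adjusted p = 0.64). Spink8 moved by 0.97 and -0.47, in the order of Trem2. Of 5 oligodendrocyte genes 2 were higher and 2 lower at 18 months and 0 higher and 3 lower with captopril. Mag among them averaged 2135 in Tg-12mo, 4192 in Tg-18mo and 2699.7 with captopril, also in the order of Trem2. Of 7 endothelial genes 2 were higher and 1 lower in each of these comparisons. Pecam1, among those higher at 18 months, averaged 88.3 in Tg-12mo and passed the filter only through the 18 month groups. Of the genes lower at 18 months here, Clu, Aldoc, Gja1, Ttr, Snap25, Rbfox3, Mbp and Mobp averaged above 10000 in Tg-12mo, and the others averaged below that. Of probe sets that averaged 10000 or above, 96.8% were below 0 between the ages, as given for Apoe. The part of these cells, and of brightness, in the results was not tested.

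Genes whose levels ran most like those of Trem2 and Cst7 over the 6 chips were not microglia markers from the lists. By Euclidean distance of centred log2 signals among 12313 other genes tested, the nearest to Trem2 were Prune1, Gprin1, Cntn2, Pianp and Mapre3 (distances 0.11 to 0.16). Prune1 was at 398 and 433 in Tg-12mo, 916 and 938 in Tg-18mo and 673 and 630.3 with captopril. The nearest to Cst7 were Lrp4, Rgmb, Sspn, Snap29 and Arl15 (0.30 to 0.44), with Lrp4 at 103 and 85.2, 281 and 277, and 331 and 309. The points share chips and scaling.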

How the data were processed

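RNA pooled from 4 mice was hybridised to each of 6 chips. The authors made the deposited signal intensities with Affymetrix GCOS, per the labels, and scaled each chip so that its mean, with 2% trimmed at each end, was 600. Detection calls were not used here. The 64 control probe sets were left out, and 23262 of 45101 probe sets with a mean of at least 100 in any group were kept. Their log2 signals were fitted with limma 3.58.1 (R 4.3.3), with a mean for each of the 3 groups over all 6 chips and an intensity trend in the prior variance (3 residual and 5.37 prior degrees of freedom). All adjusted p-values are from limma, with Benjamini-Hochberg adjustment over all tested probe sets. The fit was tested on simulated data. The number of chips limits the precision. Names came from GEO's platform annotation: 21122 tested probe sets had 1 symbol, 546 several and 1594 none. The genes and the lists were chosen with earlier results of these data known. From each list the 3 tested genes with the largest differences in each of the first 2 comparisons were considered for naming, and other list genes were named after their values were seen. Alternatives changed the scaling, filter, pseudocount, probe set, prior, block and chips.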

Additional observations from a re-analysis of the deposited data

How the results depend on the processing

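Of the 9 tested genes, 7 were higher and 2 lower in Tg-18mo than in Tg-12mo, 5 were lower with captopril, and 3 were higher and 2 lower in Tg-18mo-ACEI than in Tg-12mo. At the study's thresholds these counts were 4 and 0, 1, and 2 and 0, and where the 6 chips had to average 200, which left out Clec7a and Cst7, the genes higher in the last comparison numbered 1. Under quantile normalization 1 gene was lower in each comparison with Tg-12mo, and Apoe turned to 0.079 between the ages. Without the intensity trend 3 genes were lower with captopril. When all probe sets of each gene were averaged, 4 were higher between the ages and 2 lower with captopril, and Trem2 (-0.11) and Axl (-1.38) between the ages, Axl with captopril (0.57), and Trem2 (-0.22) and Axl (-0.81) in the last comparison changed sign. With the mean of plain probe sets 1 gene was lower in each comparison with Tg-12mo and 2 were lower with captopril. Only 7 genes were tested there, without Trem2 and Apoe, and Gpnmb and Axl (adjusted p = 0.14 and 0.060) lost their captopril calls. With each chip centred on the general microglia genes, chosen after the data were seen, 2 were lower with captopril and Tyrobp was -0.12 between the ages.

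Leaving out 1 chip gave 4 to 7 genes higher between the ages, the lowest without Tg-18mo replicate 1, and 0 to 5 lower with captopril, where omitting Tg-18mo-ACEI replicate 2 left 0, Tg-18mo replicate 2 left 1 and Tg-18mo replicate 1 left 3. Without single chips, Clec7a ranged from 1.57 to 3.31 between the ages and from 1.66 to 3.41 in the last comparison, Cst7 ranged from -0.025 to 0.15 with captopril, and in the last comparison Gpnmb ranged from -0.34 to 0.27 and Cd68 from -0.17 to 0.11. The causes were not tested. These refits leave 1 chip in a group, and the share of all probe sets called was not computed for them. The counts therefore cannot tell a loss of calls in these genes from a loss over all probe sets. With the replicate block 4 genes were lower with captopril, as Axl lost its call (adjusted p = 0.052), and the other counts did not change. Deviations of chips with the same number correlated at 0.03, -0.05 and -0.03, so no pairing by number was seen. Such values cannot show whether chips of the same number were processed together.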
